A study of Mus musculus with 3 samples.

Results

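Cytosolic ribosomal protein genes encode the protein parts of the ribosomes that translate nuclear mRNAs. They were chosen by symbol: genes in both count tables named Rpl or Rps with a number, plus Rplp0, Rplp1, Rplp2 and Rpsa, without the Rps6k kinase genes and the pseudogenes marked -ps. The rule found 82 genes, 50 of the large and 32 of the small subunit, among 14656 genes that both tables held. The study sequenced single cells of dorsal skin epithelium from wild type C57BL/6JOlaHsd mouse embryos at stage E14.5, the time at which the first hair follicle placodes, local thickenings of the epithelium, have formed. The total epithelium group is 1 library of live sorted epithelial cells. The placode-enriched group is 2 libraries of cells sorted as positive for MAdCAM-1, a surface protein used here as a placode mark. Each library pooled 3 to 4 embryos of 1 litter, so a library and not an embryo or a cell is the replicate. The 3 libraries held 1590, 1507 and 1567 cells after 11, 4 and 4 called doublets were removed, always given in the order total epithelium, the first and the second placode-enriched library. Their median depths were 21934, 21642 and 23377 unique molecular identifiers (UMIs, counted mRNA molecules) per cell, and the kept cells held 36499370, 34780779 and 38486585 UMIs. The classes compared below held from 1600662 UMIs, in suprabasal-like cells of the first placode-enriched library, to 24280843 UMIs, in total epithelium basal cells, so their values differ in precision.

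As background, each ribosome holds a single copy of nearly every ribosomal protein, except that P1 and P2 sit in several copies on the stalk around P0. Their mRNAs belong to a class that starts with a terminal oligopyrimidine (TOP) tract, a run of C and T letters that lets the mTOR and Larp1 pathway switch their translation as a set. Cells that grow or divide are known for making many ribosomes, and ribosome assembly in the nucleolus, which Myc is known to promote, uses a separate group of genes. A few members have paralogues with their own regulation, among them Rps27l, a p53 target, and Rpl22l1, which Rpl22 protein is known to repress.

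RefSeq, on the GRCm38.p6 build, gave 72 promoter entries of 300 bases for 61 of the 82 members, some of which have several annotated starts, of which 1 is shown. The windows below hold 10 bases before and 20 from the annotated start, and the capitals mark the first 5 bases from that start. For Rps2, Rps27l and Rps12 the start shown lies inside the RefSeq bounds of the gene. How exact the annotated starts are was not tested. They show the TOP start that the class is named for and the members whose levels carry the results below, which for the most part lack it at this annotated start.
Rplp2, chr7:141447641-141447670, plus strand: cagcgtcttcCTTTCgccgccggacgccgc
Rpl35, chr2:39005112-39005141, minus strand: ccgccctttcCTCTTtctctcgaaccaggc
Rps27, chr3:90213629-90213658, minus strand: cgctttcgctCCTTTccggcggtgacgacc
Rps27l, chr9:66946403-66946432, plus strand: gggcttcaggGTCACtaacgggcctcgcag
Rpl22l1, chr3:28805498-28805527, plus strand: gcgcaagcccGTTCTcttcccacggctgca
Rpl7l1, chr17:46782637-46782666, minus strand: gctgcgcaagCGCAGtagctgaagcaccgg
Rps2, chr17:24720053-24720082, plus strand: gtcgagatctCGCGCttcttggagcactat
Rpl13, chr8:123102340-123102369, plus strand: tttcgcctgaTTTTGattggcgtttgagat
Rplp0, chr5:115559457-115559486, plus strand: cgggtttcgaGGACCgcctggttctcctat
Rps12, chr10:23787190-23787219, minus strand: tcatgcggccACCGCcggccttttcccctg
The first 3 begin with C and a run of C or T, while Rps27l, Rpl22l1 and Rplp0 begin with G. Rpl22l1 and Rps12 hold a run of C and T letters further into the window. A start of C followed by 4 letters that are each C or T was present in 13 of 72 entries (18.1%) against 2.51% of all 32851 entries. The motif CCGGAAG, the core of ETS family binding sites, lay on either strand of 27 of 72 entries (37.5%) against 8.86% of all. The motif AAGATGGC, known from YY1 sites and able to overlap the former, was in 8 of 72 entries (11.1%) against 2.75% of all. TATAAA, the TATA box core, was in 7 of 72 entries (9.72%) against 13.6% of all. The 13 members with the C start and the 47 tested members with another start had similar median differences: 0.016 and 0.029 (log2) in placode-like over basal cells, and -0.16 and -0.15 in suprabasal-like over basal cells. A match describes these letters only, and no match says only that they are not in this window.

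Cells were clustered without the members, on a part of the other genes, and the clusters were named from marker genes. The placode-like class (126, 871 and 936 cells) had summed placode markers, such as Shh, Edar and Dkk4, at 1616 to 1773 CPM, UMIs of a gene scaled to 1000000 UMIs in all, against 581 to 857 in the basal epidermis-like class (1055, 293 and 314 cells). Of the placode markers Sostdc1 went the other way, at 324, 430 and 391 CPM in placode-like and 490, 716 and 675 CPM in basal cells. It made up most of the sum in basal cells. The suprabasal-like class (325, 57 and 68 cells) had summed suprabasal markers, such as Krt1 and Krt10, at 5012 to 14872 CPM against 314 to 1252 in basal cells. A cluster of 598 cells (64, 285 and 249), with 6 of the 7 basal markers and Sostdc1 among its leading genes, stayed unnamed. Different clusters made up the basal class in different libraries. Of its 5 clusters, 3, led by genes such as Dlk2, Krt15 and Hist1h2ap, came mostly from the total epithelium library, 1 led by histone genes such as Hist1h1a came mostly from the placode-enriched libraries, and 1 led by mitosis genes such as Cdc20 was mixed. The other classes were uneven too: 1 of the 2 suprabasal-like clusters, led by Lgals3 and Krt77, held 133 of 325, 2 of 57 and 4 of 68 suprabasal-like cells, and 1 placode-like cluster, led by Sprr2a3 and Dkk4, held 56 of 126, 131 of 871 and 132 of 936 placode-like cells. Markers of endothelial, immune, muscle and Schwann cells summed to under 6 CPM in these 3 classes. The 2 erythroid markers in both tables, Hba-a1 and Hba-a2, summed to 11.4, 4.998 and 3.83 CPM in suprabasal-like cells of the 3 libraries and to 0.494, 0 and 0.391 CPM in basal cells. Of the 6 fibroblast markers in both tables, Dcn and Postn were expressed while Col1a1 stayed near 0, and the list summed to 1121 to 1627 CPM in placode-like, 624 to 815 in basal and 159 to 307 in suprabasal-like cells. The libraries shared 1 or 2 cell barcodes per pair.

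The 82 members together held 31.3% of all UMIs, and 78 of them averaged over 1000 CPM. The median member stood at 3703 CPM, and the 10 highest held 20.4% of the members' UMIs. CPM of 3' tags counts molecules and needs no scaling by length. Rpl41, the smallest ribosomal protein, was the highest, at 10051, 9652 and 9647 CPM in the 3 libraries (9783 ± 232, SD, n = 3). Rpl13 (6632 ± 514 CPM), Rplp0 (6317 ± 157 CPM) and Rps19 (5914 ± 380.4 CPM) were also among the highest, and Rpl13 and Rplp0 lay within their spread of each other. The 5 lowest included 4 genes named after another member. Of these, Rpl6l is annotated as a pseudogene in RefSeq and was kept because its symbol fits the rule. Rpl22 stood at 1518, 1641 and 1915 CPM and its paralogue Rpl22l1 at 2002, 1867 and 1646 CPM, so that the paralogue was the higher in the total epithelium and the first placode-enriched library and the lower in the second. Rps27l (607 ± 71.4 CPM) was far below Rps27 (5572 ± 204), Rpl6l stood at 592 ± 71.4 CPM and did not differ from Rps27l beyond their spread, and Rpl7l1 (136 ± 10.5) was far below Rpl7 (3192 ± 530.1). Rpl39l, known from the testis, had 6, 14 and 26 UMIs in the 3 libraries, in 0.189%, 0.398% and 0.638% of cells, and failed the low-count filter, so the tests below cover 81 of the 82 members.

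Summed over all members and all cells of a class, the share was slightly higher in placode-like than in basal cells and lowest in suprabasal-like cells. In placode-like cells the members took 30.1, 31.1 and 33.5% of UMIs in the 3 libraries (mean 31.6% ± 1.73, SD, n = 3). Basal cells had 29.97, 30.4 and 32.5% (30.96% ± 1.33), and suprabasal-like cells had 27.9, 27.7 and 29.5% (28.4% ± 0.980). All 3 suprabasal-like values lay below all basal values, while placode-like and basal cells overlapped, and the order of the classes was the same within each library. Placode-like cells exceeded basal cells by 0.177, 0.695 and 1.04 percentage points, and suprabasal-like cells differed from basal cells by -2.03, -2.73 and -2.96 points. The first difference averaged 0.637 ± 0.434 points (SD, n = 3) and was positive in each library, but it averaged 0.167 points when cells were clustered on the other genes. In cells called cycling, as defined below, it was 0.311, 0.289 and 0.582 points. In non-cycling cells it was -0.991, -0.353 and -0.825 points, with 148, 6 and 5 basal cells. Cycling cells made up 81.5, 75.8 and 70.6% of placode-like and 85.9, 97.9 and 98.4% of basal cells with a phase call. The part of this mix was not tested. The second difference, of suprabasal-like from basal cells, averaged -2.57 ± 0.487 points and was negative in each library. The unnamed cluster had the highest share, at 30.6, 32.6 and 34.9%, and the 20 melanoblast-like cells of the total epithelium library had 25.6%. The ratio of large to small subunit UMIs was 1.30 ± 0.0193 in placode-like, 1.31 ± 0.0244 in basal and 1.32 ± 0.0299 in suprabasal-like cells, which differed by no more than about its spread between libraries.

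A share can fall because a cell holds fewer member UMIs or more of the rest, and the libraries differed in this. In the total epithelium library the median suprabasal-like cell had 6901 member UMIs and 17181 other UMIs, against 6717 and 15182 in basal cells. There both counts were higher in suprabasal-like cells, and the other UMIs more so. In the second placode-enriched library the values were 9097 and 21120.5 in suprabasal-like cells and 10926 and 21874 in basal cells, so that there the member UMIs were lower. Placode-like cells had fewer of both than basal cells in the same library, with 7171 member and 13673 other UMIs. Single cells varied more than classes: the quartiles of placode-like cells in the second placode-enriched library were 31.5% and 36.1%.

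Cells were called S, G2M or G1 from S and G2M genes, after thinning each cell to 10000 UMIs, and S and G2M cells were taken as cycling. Cell cycle genes kept out of that call followed it: in placode-like cells they summed to 471, 496 and 426 CPM in G1 and 1921, 1991 and 1902 CPM in G2M. The members' share was highest in G1 and lowest in G2M in the placode-like and basal classes of all 3 libraries. Placode-like cells had 30.9, 33.1 and 35.05% in G1, 30.5, 32.04 and 34.2% in S and 29.3, 29.7 and 32.2% in G2M. Basal cells had 31.9, 33.4 and 35.9% in G1, 30.5, 30.95 and 33.1% in S and 28.95, 30.3 and 32.2% in G2M. The difference of cycling from non-cycling cells was -0.879, -2.39 and -2.03 points in placode-like and -2.18, -3.03 and -3.44 points in basal cells. In suprabasal-like cells it was -2.88, -3.14 and -0.565 points, and S exceeded G1 in the second placode-enriched library. All 3 classes were lower in cycling cells, by more than the spread of these differences between libraries in the placode-like and basal classes. The basal and suprabasal-like classes of the placode-enriched libraries held only 6 and 5, and 4 and 6, non-cycling cells, so those G1 values rest on few cells.

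Per cell, however, member UMIs were higher in G2M than in G1. In the first placode-enriched library the median placode-like cell had 5518 member UMIs in G1 and 7521 in G2M, while other UMIs were 11242 and 18564. In the basal class of the total epithelium library, the best filled in all phases, member UMIs were 5706, 6842 and 7359 in G1, S and G2M, and other UMIs were 12314, 15446 and 17997. Member mRNA was higher in the later phase in these cells, and the rest of the mRNA was higher by a larger factor.

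**Figure D1:**
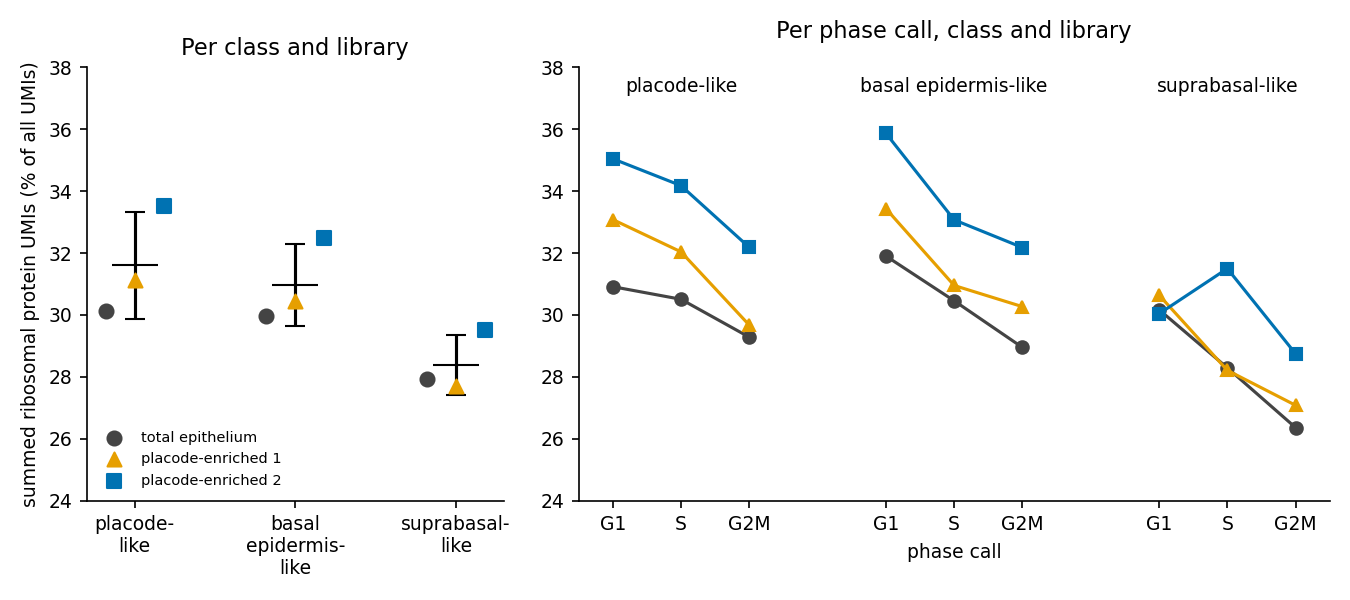
Summed ribosomal protein UMIs as a percent of all UMIs (y axis, starting at 24%). Left, each class with 1 point per library, the mean (bar) and SD; right, G1, S and G2M cells of each class, joined within a library. Suprabasal-like cells lie lowest in every library, and in placode-like and basal cells each line falls from G1 to G2M.

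Placode-like cells, which form the hair follicle primordium, were compared with basal cells member by member, on UMI sums per class and library with the library as a block. With this block, p-values measure how the class difference varied between the 3 libraries of pooled embryos, and not the spread of the libraries' levels. Of 81 members, 24 had higher values in placode-like cells (quasi-likelihood test of edgeR, Benjamini-Hochberg adjusted p under 0.05), where 18.9% of the 6229 genes tested were higher. Another 7 were lower, against 17.9% of all genes, and 50 did not pass. In either direction 31 of 81 (38.3%) passed, near the 36.8% of all genes, and more of them were higher (29.6%) than lower (8.64%). The differences were small: the members' median was 0.034 (log2) beside 0.0043 for all genes. By plain CPM, without the scaling that the test used, 48 members were higher in all 3 libraries, against 30.6% of all genes. By the same measure 14 were lower, against 29.8%. By subunit, 12 members of each subunit were higher, and 5 of the large and 2 of the small subunit were lower. Beside these differences, summed fibroblast markers were higher in placode-like cells, as given above, and cell cycle genes kept out of the phase call summed to 1396, 1428 and 1301 CPM in placode-like and 1477, 1983 and 1874 CPM in basal cells. The part of the fibroblast markers was not tested, and the values within cycling cells are given below.

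The largest fall was in Rps27l, the p53-regulated paralogue of Rps27. It stood at 583, 516 and 498 CPM in placode-like and 678, 651 and 620.3 CPM in basal cells, without overlap of the classes (log2 fold change -0.29, SE 0.038, adjusted p = 1.44e-04, edgeR). Rps27 itself went the other way, with 6287, 5669 and 5659 CPM in placode-like and 5964, 5175 and 5123 CPM in basal cells (log2 fold change 0.12, SE 0.020, adjusted p = 0.00105). Rps27 was higher in placode-like cells within each library, although the ranges of the classes overlap. Rps2, a small subunit protein at the mRNA entry, was 4664, 4746 and 5067 CPM in placode-like and 5142, 5527 and 5763 CPM in basal cells (log2 fold change -0.18, SE 0.020, adjusted p = 4.57e-05). All 3 placode-like values of Rps2 lay below all 3 basal values. Rpl7l1 (125, 135 and 118 against 139, 151 and 129.6 CPM) fell by 0.15 on the log2 scale (adjusted p = 0.0377). Its better known relative Rpl7 rose from 2612, 3251 and 3318 to 2769.8, 3532 and 3702 CPM (log2 fold change 0.12, SE 0.023, adjusted p = 0.00208). The other named falls were smaller: Rpl36 (-0.11), the stalk protein Rplp1 (-0.074), Rpl41 (-0.067) and Rpl13 (-0.061).

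Among the rises, Rpl10, which joins the large subunit late in its assembly, had 3425, 4049 and 4089 CPM in placode-like and 3275, 3647 and 3598 CPM in basal cells (log2 fold change 0.13, SE 0.026, adjusted p = 0.00214, edgeR). Rps28, at the small subunit's head, had 5697, 4728 and 4991 against 5318, 4318 and 4484 CPM (log2 fold change 0.13, SE 0.020, adjusted p = 5.03e-04). Rplp0, the base of the stalk, had 6502, 6465 and 6724 against 6156, 5950.3 and 6059 CPM (log2 fold change 0.12, SE 0.020, adjusted p = 8.63e-04), and its placode-like values all exceeded the basal ones. Rps4x rose by 0.087 and Rpl3 by 0.082 (log2). Within the stalk the parts differed in direction, since Rplp0 rose, Rplp1 fell and Rplp2 did not pass the test (-0.013, adjusted p = 0.628). These calls rest on the block for library: without it no member was called. They were also sensitive to the cells counted as basal: with the unnamed cluster counted as basal 14 members were higher and 17 lower (18.9% and 17.7% of all genes), and after clustering on the other genes 15 were higher and 15 lower (20.6% and 19.5%). DESeq2 called 0 higher and 2 lower, and leaving out a library gave 54 calls without the total epithelium library, 7 without the first and 12 without the second placode-enriched library. The share of all genes called is not given for these last counts. They do not show whether the members' calls changed more than those of other genes.

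**Figure D2:**
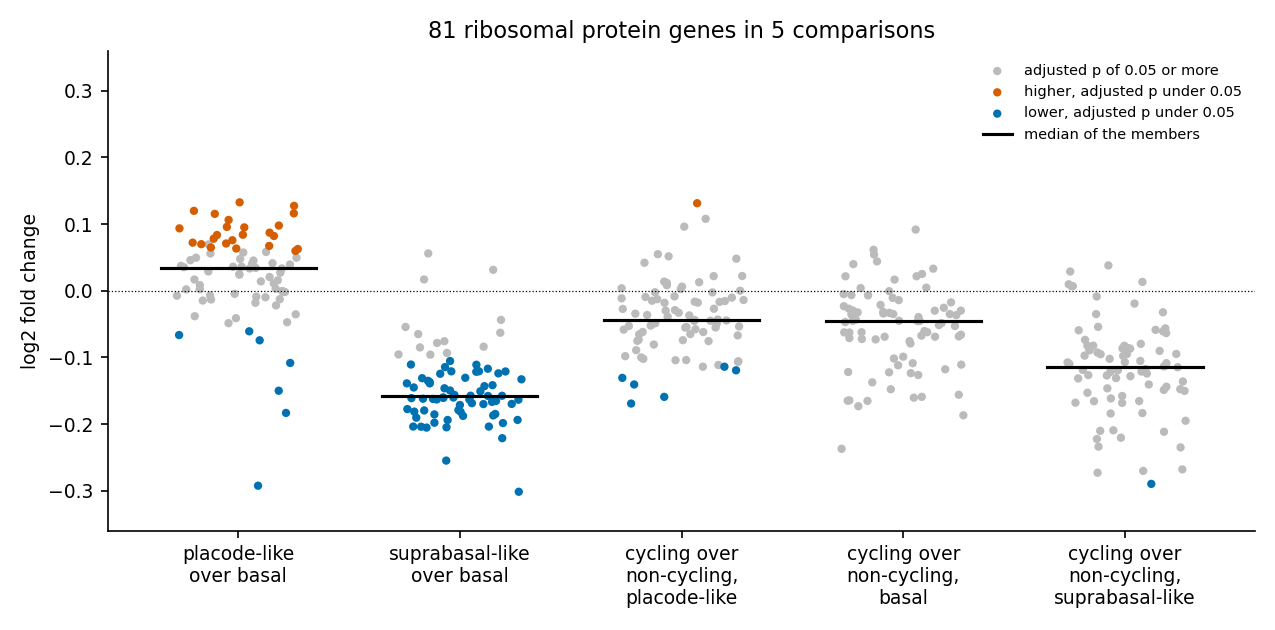
Log2 fold changes (y axis) of the 81 tested members in 5 comparisons (x axis); each point is a gene, coloured where the adjusted p is under 0.05, and the bar is the members' median. The 67 members called lower in suprabasal-like cells form 1 narrow group, while placode-like cells have calls in both directions.

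In suprabasal-like cells, which have left the basal layer, 67 of the 81 members were lower than in basal cells and 0 were higher (edgeR, adjusted p under 0.05, on the same basal sums as above), where 17.3% of the 5900 genes tested were lower and 15.7% higher. The members' median was -0.16 (log2), a change of -10.4%, beside -0.033 for all genes. The members' quartiles were -0.18 and -0.12, and both subunits took part, with 38 of the large and 29 of the small subunit called. By plain CPM, 74 members were lower in every library, against 29.4% of all genes.

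Rpl13, the second most abundant member, fell most, from 7552, 6363 and 6597 CPM in basal to 6285, 5265 and 5420.3 CPM in suprabasal-like cells (log2 fold change -0.30, SE 0.028, adjusted p = 4.44e-05, edgeR). Each suprabasal-like value of Rpl13 lay below all basal values. Rpl22l1 fell from 2085, 1865 and 1637 to 1748, 1632 and 1391 CPM (log2 fold change -0.25, SE 0.037, adjusted p = 6.86e-04). Rpl36a (-0.22), Rps4x (-0.21), Rpl13a (-0.20) and Rps20 (-0.20) were the next. Rpl41, the most abundant member, had 9255, 8723 and 8681 CPM in suprabasal-like and 10336, 9903 and 9875 CPM in basal cells (log2 fold change -0.20, SE 0.026, adjusted p = 3.55e-04). Of the stalk proteins, Rplp1 (-0.20) and Rplp2 (-0.16) fell, and Rplp0 did not pass (-0.054, adjusted p = 0.192). The laminin receptor Rpsa, a small subunit protein that is also known as a receptor, fell by 0.15 (adjusted p = 0.0159). Rpl3 (-0.16) and Rpl10 (-0.11) also fell. Of the paralogue pairs, Rps27 (-0.17) and Rpl7 (-0.12) fell, while Rps27l (0.031, adjusted p = 0.702) and Rpl7l1 (0.056, adjusted p = 0.582) did not pass. Rpl14 had 4628, 4216 and 4265 CPM in suprabasal-like and 4555, 4076 and 4085 CPM in basal cells and was the only member of over 1000 CPM with a value above 0 (0.017, adjusted p = 0.714); it was named after its values were seen. The calls depend on the placode-enriched libraries, whose suprabasal-like classes had 57 and 68 cells: without the first 0 members were called, without the second 1, and without the total epithelium library 77. The median was below 0 each time (-0.14, -0.13 and -0.18). Without the library block 0 members were called, and DESeq2 called 17. These counts too are given without the share of all genes called. Beside this difference, summed periderm markers were 181 to 248 CPM in suprabasal-like and 22.2 to 25.5 CPM in basal cells. Of these sums, Grhl3 alone held 183, 239 and 164 CPM in suprabasal-like and 16.97, 11.5 and 9.98 CPM in basal cells. The keratins of the list did not follow as a set. Krt8 was lower in suprabasal-like cells, at 0.372, 0 and 0.479 against 0.741, 1.98 and 2.94 CPM. Krt4, Krt18 and Krt19 differed in direction between libraries, and Krt6a, near 0, was higher in each. The erythroid markers given above differed too. The part of the periderm and erythroid markers in the members' difference was not tested.

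Paralogues and their partners are shown by class in the plot of single members. Rps27l and Rpl7l1 were lower in placode-like than in basal cells, as described, and near the basal level in suprabasal-like cells. Rpl22 was 1558, 1626 and 1917 CPM in placode-like, 1527, 1601 and 1867 in basal and 1489, 1544 and 1765 in suprabasal-like cells, and its 2 tests did not pass (adjusted p = 0.423 and 0.126, edgeR). Rpl39, at the exit of the peptide tunnel, did not pass either (0.045, adjusted p = 0.0784, and -0.078, adjusted p = 0.0819). Rpsa had 3019, 3142 and 3646 CPM in placode-like and 2959, 3024 and 3493 CPM in basal cells (adjusted p = 0.112). Rpl10l, in the placode-enriched table alone and so not a member, had 1 and 4 UMIs in its 2 libraries.

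**Figure D3:**
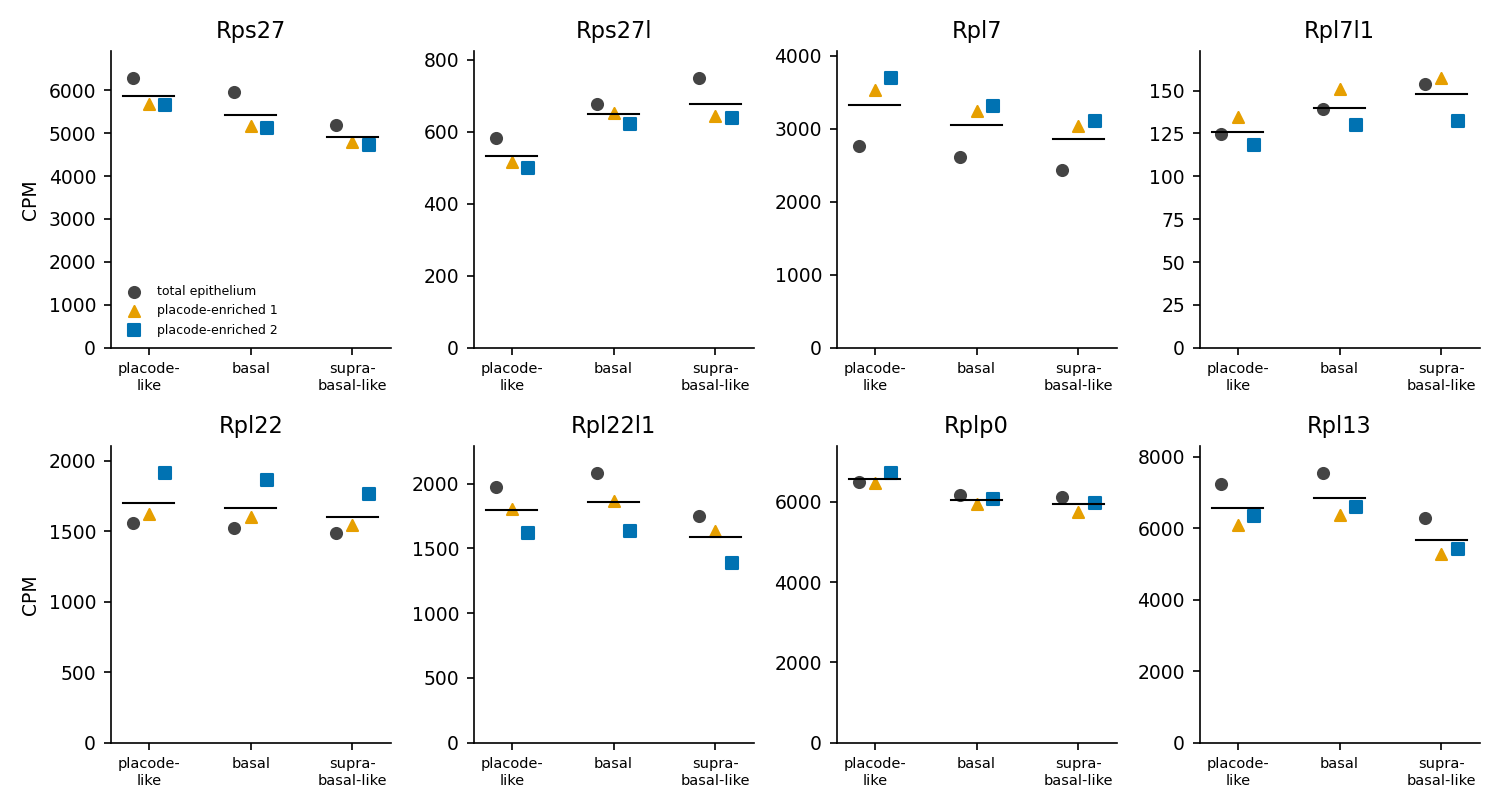
CPM (y axes, from 0) of 8 members in 3 classes (x axes), 1 point per library, with the mean as a bar. Rps27l lies lowest in placode-like cells and Rpl13 lowest in suprabasal-like cells, while library differences of Rpl22 and Rpl22l1 run in opposite directions within every class.

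Cycling cells were compared with non-cycling cells of the same class and library, on all genes except the S and G2M lists. In placode-like cells 1 member was higher and 6 were lower (edgeR, adjusted p under 0.05), where 13.2% of the 10495 genes tested were higher and 8.82% lower, and the members' median was -0.043 (log2). Rplp1 rose in cycling cells, from 3531, 4653 and 5910.1 to 3998, 4808 and 6184 CPM (log2 fold change 0.13, SE 0.044, adjusted p = 0.0275). Rpl24, a member of a bridge between the subunits, fell from 2906, 3112 and 3164 to 2620.3, 2614 and 2729 CPM (log2 fold change -0.17, SE 0.043, adjusted p = 0.00294). Rpl3, close to the peptidyl transferase centre, fell from 4674, 4465 and 4289 to 4113, 3850.5 and 3707 CPM (log2 fold change -0.16, SE 0.042, adjusted p = 0.00424). Rpl6l (-0.14), annotated as a pseudogene, Rps26 (-0.13), Rpl10 (-0.12) and Rps28 (-0.11) were the other falls. By plain CPM all 6 falls were seen in each library, as for 58 members in all, against 26.9% of all genes. The number of calls depends on how libraries were scaled and on the phases compared. By total UMIs alone, without the trimmed mean of M values (TMM), 1 member was higher and 50 were lower, where 11.4% of all genes were lower; G2M against G1 gave 1 and 22, and S against G1 gave 1 and 2. Leaving out either placode-enriched library gave 0 calls and leaving out the total epithelium library, with 23 non-cycling placode-like cells, gave 2 and 38. For the phases and the left-out libraries the share of all genes called is not given.

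In basal cells 0 members were called (edgeR; 9 had an unadjusted p under 0.05, and DESeq2 also called 0), where 3.61% of 10604 genes were higher and 0.632% lower. The members' median was -0.046 beside 0.024 for all genes, and 69 members had a fitted change below 0. By plain CPM, without TMM, 72 members were lower in each library, against 13.5% of all genes. With the unnamed cluster counted as basal, an alternative chosen after the few non-cycling basal cells were seen, 76 members were lower, where 7.13% of all genes were lower, and the median was -0.13. By total UMIs without TMM 26 were lower, where 1.18% of all genes were lower, and with cells thinned to 5000 UMIs the median turned to 0.14 with 0 calls. In suprabasal-like cells 1 of 81 was lower, where 5.2% of 8788 genes were lower and 7.28% higher: Rplp0, with 5745, 5662 and 5906 CPM in cycling and 7427, 7034 and 6526 CPM in non-cycling cells (log2 fold change -0.29, SE 0.095, adjusted p = 0.0428). The median there was -0.11, and by plain CPM 47 members were lower in each library, against 15.7% of all genes. Rplp0 did not pass when any 1 of the 3 libraries was left out, with DESeq2 or without the low-count filter.

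Because classes differ in cycling, placode-like and basal cells were also compared within a state. The cycling state still pools S and G2M cells, whose mix differed between the classes. Cycling placode-like cells in the 3 libraries were 65, 307 and 295 in S and 36, 317 and 333 in G2M. Cycling basal cells were 494, 69 and 96 in S and 405, 214 and 211 in G2M. Single members were not compared between classes within S or within G2M, so the part of this mix was not tested. In cycling cells 27 members were higher and 8 lower (edgeR), against 17.7% and 16.4% of 6023 genes, with a median of 0.027. The rises of Rplp0 (log2 fold change 0.11, SE 0.014, adjusted p = 1.56e-04), Rpl10 (0.11), Rpl7 (0.11) and Rps27 (0.10) and the falls of Rps27l (log2 fold change -0.28, SE 0.033, adjusted p = 7.21e-05) and Rpl7l1 (-0.15) were thus also present in cycling cells alone. In non-cycling cells 3 were lower and 0 higher, against 2.56% and 4.34% of 4419 genes. Rpl22l1 had 1648, 1845 and 1594 CPM in placode-like and 2369, 2331 and 2176 CPM in basal non-cycling cells (log2 fold change -0.43, SE 0.073, adjusted p = 2.12e-04), and the classes did not overlap. It passed in each of the 10 alternatives. Rps27l (-0.41, adjusted p = 0.0163) and Rps2 (-0.31, adjusted p = 0.00116) were the others. Non-cycling suprabasal-like cells were lower than basal ones in 2 members, Rpl22l1 (-0.50, adjusted p = 0.00213) and Rpl13 (-0.28, adjusted p = 0.0223), against 12.2% of 1069 genes, and 0 were higher, against 17.4%. The members' median there was -0.099 (log2), beside -0.0064 for all genes. The summed share of suprabasal-like minus basal cells was -1.73, -2.79 and -5.83 points in non-cycling cells. In cycling cells it was -2.44, -2.91 and -2.96 points, and neither difference was tested. The comparisons in non-cycling cells rest on 148, 6 and 5 basal cells, and the last of them on 83, 4 and 6 suprabasal-like cells.

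The difference of the cycling effect between placode-like and basal cells was tested as an interaction. It called 0 of 81 members (edgeR; 1 had an unadjusted p under 0.05, and DESeq2 called 1), against 0.198% of 5566 genes. The member with that p was Rpl22l1, named after its values were seen. Its cycling effect was 0.10 in placode-like cells (adjusted p = 0.159) and -0.24 in basal cells (adjusted p = 0.0602), a difference of 0.33 (SE 0.085, adjusted p = 0.0799). Its adjusted p ranged from 0.00459 to 0.9998 over the alternatives and was under 0.05 in 4 of 10. Its partner Rpl22 showed no such difference that the test could call (0.027, adjusted p = 0.988).

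Other genes of ribosome biology were counted in the same comparisons. Of 37 genes for ribosome assembly and RNA polymerase I, 20 were lower in placode-like than in basal cells (54.1%, against 17.9% of all genes) and 0 higher (against 18.9%; edgeR, adjusted p under 0.05; list median -0.23, all genes 0.0043). Polr1b, a subunit of RNA polymerase I, had 16.2, 12.2 and 8.75 CPM in placode-like and 21.4, 18.8 and 11.8 CPM in basal cells (log2 fold change -0.51, SE 0.10, adjusted p = 0.00278). Dkc1, the pseudouridine synthase of small nucleolar particles, had 135, 109 and 103 against 156, 151 and 142 CPM (log2 fold change -0.39, SE 0.061, adjusted p = 4.46e-04). Bop1 (-0.39) and Polr1a (-0.36) were the other 2 of the 4 largest falls. In suprabasal-like cells the assembly genes had 12 of 37 higher (32.4%, against 15.7% of all genes) and 3 lower (8.11%, against 17.3%), while 22 did not pass (list median 0.16), where 67 members were lower. Ltv1, needed to mature the small subunit, had 103, 94.3 and 72.8 CPM in suprabasal-like and 52.3, 50.4 and 40.2 CPM in basal cells (log2 fold change 0.89, SE 0.087, adjusted p = 5.79e-05). Bysl (0.57) and Polr1d (0.57) also rose, and Polr1c fell (-0.61). In cycling placode-like cells 15 of the 37 were higher (40.5%, against 13.2% of all genes) and 0 lower (against 8.82%), among them Ncl, which encodes nucleolin, with 1194, 1067 and 1124 against 724, 802 and 877 CPM (log2 fold change 0.47, SE 0.048, adjusted p = 3.92e-10), Nolc1 (0.42), Dkc1 (0.41) and Nop56 (0.39).

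Translation elongation genes and other TOP mRNAs made a second group. Of 18, 9 were higher in placode-like than in basal cells (50%, against 18.9% of all genes) and 3 lower (16.7%, near the 17.9% of all genes), led by Hnrnpa1 (log2 fold change 0.35, SE 0.034, adjusted p = 1.84e-05, edgeR), Eif3h (0.33) and Eif3f (0.32), with Eef1d lower (-0.31). Eef1a1, the factor that brings tRNAs to the ribosome, had 6101, 8046 and 8762 CPM in placode-like and 5834, 7076 and 7483 CPM in basal cells (log2 fold change 0.16, SE 0.027, adjusted p = 9.25e-04). In suprabasal-like cells 9 of 18 were lower (50%, against 17.3%) and 0 higher (against 15.7%), led by Hnrnpa1 (-0.39), Pabpc1 (-0.26), Npm1 (-0.24) and Eef2 (-0.23). In cycling placode-like cells 11 were lower (61.1%, against 8.82%), led by Eif3e (-0.28), Eef2 (-0.25) and Eif4b (-0.24), and 1 was higher (5.56%, against 13.2%), Eef1d (0.24). Fau, whose product is cut to yield a small subunit protein, rose in placode-like cells (log2 fold change 0.12, SE 0.024, adjusted p = 0.00229) and fell in suprabasal-like cells (-0.10, adjusted p = 0.0428). Rpl36al, outside the symbol rule, was lower in placode-like cells (log2 fold change -0.20, SE 0.031, adjusted p = 4.27e-04). Whether these groups differ from the members was not tested.

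Mitochondrial ribosomal proteins, 76 of 77 of them tested, were lower in placode-like cells in 30 cases (39.5%, against 17.9% of all genes) and higher in 2 (2.63%, against 18.9%; edgeR, list median -0.13). The 4 largest changes were Mrpl51 (log2 fold change -0.48, SE 0.051, adjusted p = 3.22e-05), Mrpl37, which rose (0.44), Mrpl12 (-0.41) and Mrps24 (-0.39). In suprabasal-like cells 10 were lower (13.2%) and 5 higher (6.58%), both below the 17.3% and 15.7% of all genes. In cycling placode-like cells 9 were higher (11.8%, against 13.2%), led by Mrpl51 (0.51), and 1 lower (1.32%, against 8.82%). Of 23 growth control genes, placode-like cells had 4 higher (17.4%) and 5 lower (21.7%), near the 18.9% and 17.9% of all genes. Myc had 36.2, 11.03 and 12.2 CPM in placode-like and 58.7, 33.9 and 27.01 CPM in basal cells (log2 fold change -1.20, SE 0.14, adjusted p = 5.47e-05). Mxd4, an antagonist of Myc, had 19.3, 31.7 and 45.9 against 14.7, 7.72 and 11.6 CPM (log2 fold change 1.59, SE 0.22, adjusted p = 1.99e-04), and its ratio was far smaller in the total epithelium library. Deptor (-1.09), at about 1 to 2 CPM, and Mycl (0.99) completed the 4 largest. In suprabasal-like cells Mycn fell (-2.90), and Mycl (1.76), Ddit4 (1.72), an mTOR inhibitor, and Mxd1 (1.33) rose. Of the 11 tested p53 targets, placode-like cells had 4 higher (36.4%, against 18.9% of all genes) and 2 lower (18.2%, near the 17.9%). Plk2 (log2 fold change 1.76, SE 0.072, adjusted p = 3.15e-08), Cdkn1a (1.46) and Trp53inp1 (0.94) rose where the member Rps27l, also a p53 target, fell, and Perp fell (-0.59). In suprabasal-like cells 4 were higher (36.4%, against 15.7%) and 1 lower (9.09%, against 17.3%), led by Cdkn1a (4.08), Perp (2.03) and Plk2 (1.85).

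**Figure D4:**
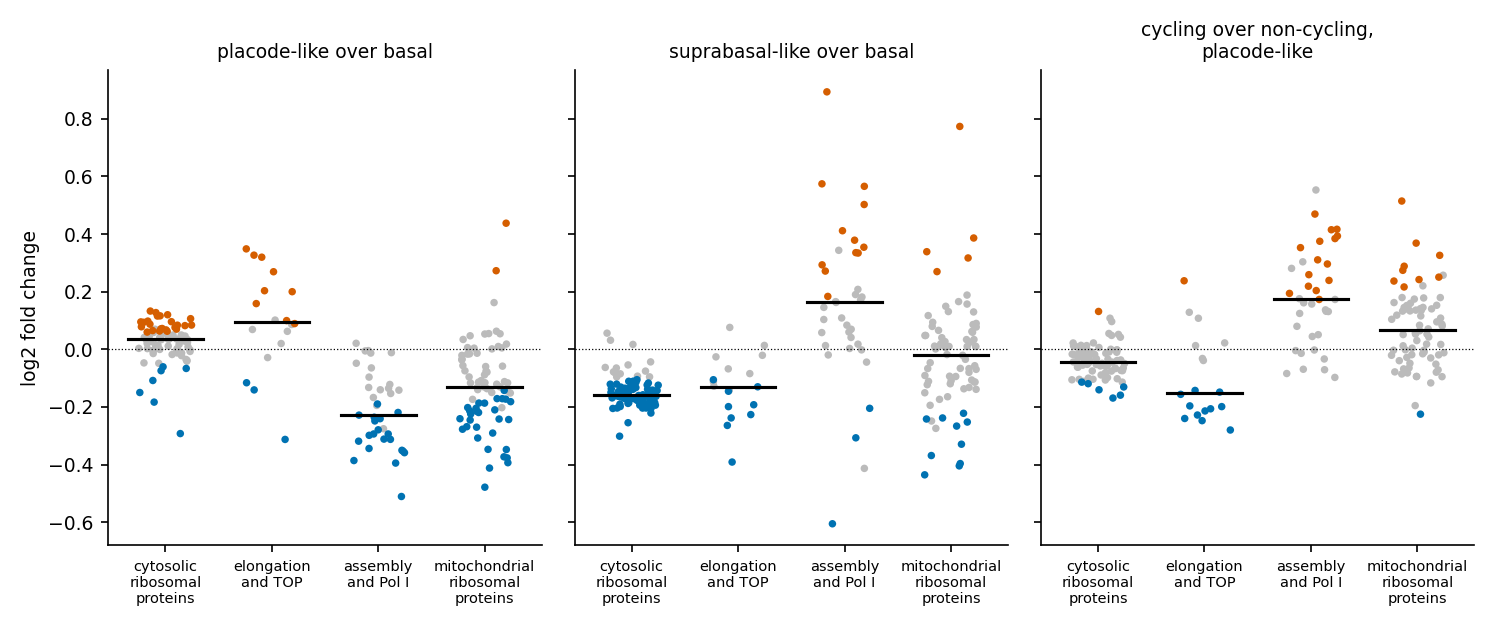
Log2 fold changes (y axis) of the cytosolic ribosomal proteins and 3 other gene groups (x axis) in 3 comparisons; points are genes, orange higher and blue lower at an adjusted p under 0.05, bars are medians. Assembly genes have medians of -0.23, 0.16 and 0.17, each on the other side of 0 from the members' medians of 0.034, -0.16 and -0.043.

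The members also differed between libraries. Over all cells the members took 29.5, 31.1 and 33.2% of UMIs. For 56 of the 81 members the ratio of the highest to the lowest library exceeded that of the highest to the lowest class, with medians of 1.16 and 1.13 and largest values of 1.94 and 1.27. The library ratio used single libraries over all cells. The class ratio used class means over the 3 libraries, so the ratios are not alike. In 53 members CPM increased in the order total epithelium, first and second placode-enriched library, and in 9 it decreased. These counts and that of the ratios were not made over all genes, so they do not set the members apart. Rps12, a small subunit protein at the beak of its head, had 2292, 3299 and 4442 CPM, a ratio of 1.94 between the last and the first. The same ratio was 1.84 in placode-like, 1.93 in basal and 1.81 in suprabasal-like cells. Rpl30 (1303, 1919 and 2386 CPM), Rps20 (2724, 3866 and 4855 CPM) and Rplp1 (3942, 4903 and 6279 CPM) had the same order. Rpl35 ran the other way, with 4063, 3323 and 2324 CPM. Its ratio of 0.572 was 0.561 in placode-like and 0.563 in basal cells. These genes, chosen after their values were seen, thus kept their library difference inside each class. In all, 22 of 81 members were 1.25-fold or more higher in the second placode-enriched than in the total epithelium library, against 13.7% of 2677 genes at 50 CPM or more, and 2 were as much lower, against 27.2%. In the first placode-enriched over the total epithelium library 8 were higher, against 12.8%, and 0 lower, against 16.8%. Between the 2 placode-enriched libraries 5 were higher and 1 lower in the second, against 1.05% and 2.69% of genes. With 1 library of total epithelium no test was made, and the sort, the litter and the preparation cannot be told apart.

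**Figure D5:**
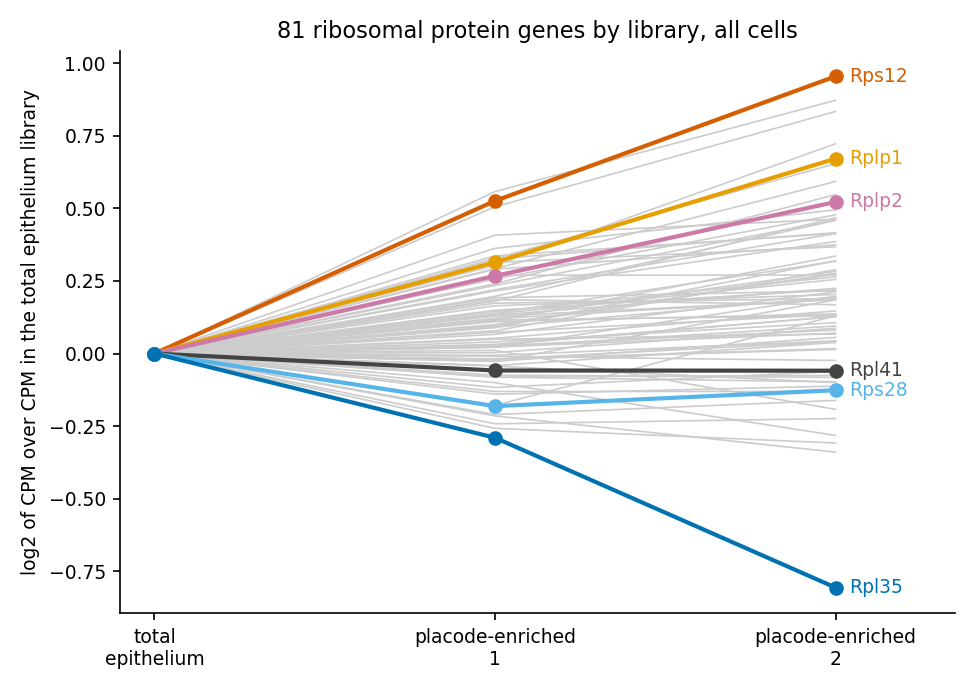
Log2 of each member's CPM over its CPM in the total epithelium library (y axis) in the 3 libraries (x axis), all cells; grey lines are the 81 members and 6 are coloured. Rps12 and Rpl35 end at 0.95 and -0.81, at the upper and lower edge of the members.

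Many members have near-identical processed copies in the genome, and how reads were divided between a gene and its copies is not given in the sources used here. Of the 81 members with annotated transcripts, 38 shared 50% or more of the 50-base stretches in their last 400 bases with transcripts of other genes, 7 shared none, and the median share was 47.4%. As many as 26 such copies, each with 25% or more of a member's stretches, were in both tables, for 22 members, and they held 1.20%, 0.957% and 0.949% of UMIs. Of the 26, 22 were lower in the second placode-enriched than in the total epithelium library. Gm10076, a copy of Rpl41, had 1394, 643 and 274 CPM, while Rpl41 itself had 10051, 9652 and 9647 CPM. Rps27rt, a copy of Rps27, had 1542, 783 and 894 CPM. Rps12-ps3, with 82.1% of Rps12's stretches, had 892, 1143 and 1520.5 CPM and so moved with Rps12, and Gm2000, a copy of Rpl35, had 468, 374 and 199 CPM and moved with Rpl35. The sums of Rps12 and Rps12-ps3 (3183, 4443 and 5962 CPM) kept the order of the libraries. The values of members with such copies are therefore uncertain, and reads that match several genes may also be in neither count. With all 26 copies added, the summed share was 31.4, 32.1 and 34.5% in placode-like, 31.2, 31.4 and 33.4% in basal and 29.1, 28.6 and 30.4% in suprabasal-like cells, with the same order of classes in each library.

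Over the 9 sums of 3 classes in 3 libraries, the genes whose log2 CPM was most like that of the summed members, among 2647 at 50 CPM or more, were Parp1 (Pearson's r = 0.948), Chd3 (0.932), Hnrnpc (0.929), Rbbp6 (0.922) and Supt5 (0.920). These 9 points share libraries and depth, and the values describe likeness only.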

How the data were processed

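Single-cell 3' RNA-seq of 3 libraries was analysed from 2 tables of UMI counts per gene and cell that the authors deposited, 1 for total epithelium and 1 for both placode-enriched libraries. Per the submitters' processing notes, Cell Ranger, Seurat and the mm10 build were used; versions, annotation and the treatment of reads with several matches are not given in the sources used here. In the placode-enriched table a cell's library was taken from the number at the end of its barcode, matched to the number in the library's title. The smallest number of genes in a cell was 2121, 2030 and 2005, and mitochondrial UMIs stayed under 5% in all 3 libraries, so the tables hold filtered cells. No further filter was applied except that doublets called with Scrublet in scanpy (version 1.11.5) were left out. The caller marked 0.687%, 0.265% and 0.255% of cells, so few doublets were found and others may remain.

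Cells were clustered (Leiden, resolution 1) on one part of the genes, without the members, the other gene lists and the markers. Clusters were named from the markers, with thresholds set after the clusters were seen. Phases were called on cells thinned to 10000 UMIs; 21, 62 and 62 shallower cells have none, and 515 of the 4519 called cells (11.4%) lay within 0.05 of the border between calls. UMI counts were summed per library and class, or class and state, and fitted with edgeR (version 4.0.16, R 4.3.3): trimmed mean of M values scaling, its filter on low counts, the library as a block, and the quasi-likelihood test with Benjamini-Hochberg adjustment over all genes tested, at 0.05. Comparisons of classes were tested on the genes that the clustering did not use plus the members and lists. The SE is the log2 fold change divided by the root of the test statistic. DESeq2 (version 1.42.0) was an alternative. On simulated counts, the comparison of placode-like with basal cells, on 6229 genes, recovered 73% of 1.5-fold and 97% of 3-fold changes. That of suprabasal-like with basal cells, on 5900 genes, recovered 42% and 93%, and 21 and 6 unchanged genes were called. The simulated libraries differed in depth but in no gene's level, and the planted changes were larger than those of the members. The rates therefore do not tell how well changes of the members' size are found.

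The library pairs the class sums, since both come from the same cell suspension: deviations from the class means correlated by 0.867, 0.821 and 0.860 between placode-like and basal cells, and by 0.806, 0.662 and 0.754 between suprabasal-like and basal cells, over 2738 genes. Members named in the text are those with the 6 largest rises and falls per comparison that passed with the same sign in all 3 libraries, the stalk proteins, Rpsa, the paralogue pairs, and the 5 highest and 5 lowest; of each other gene list, up to 4 that passed. Others are said to be named after their values were seen. The sign in each library, here and in the counts over all 3 libraries, was taken from CPM by total UMIs, without TMM. Some members that the rule picks are not reported here. The members and lists were chosen with earlier results of these data known. Pseudogenes marked -ps (15 genes, 0.425% of UMIs) were left out of the members. Rpl6l, which RefSeq annotates as a pseudogene without that mark, was kept. Alternatives were other scalings and filters, DESeq2, no block, each library left out, other clusterings, thinned cells and other definitions of cycling.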

Additional observations from a re-analysis of the deposited data

Results flagged for a closer look

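The summed share of placode-like cells minus that of basal cells had opposite signs in the 2 states. In cycling cells it was 0.311, 0.289 and 0.582 percentage points in the 3 libraries, and in non-cycling cells it was -0.991, -0.353 and -0.825 points. The means differed by 1.117 points, and each of the 3 libraries had a positive value in cycling and a negative value in non-cycling cells, but the difference was not tested. Non-cycling basal cells numbered 148, 6 and 5. Outside the members, Rpl10l, a gene of the placode-enriched table alone, had 4 UMIs in the second placode-enriched library. Near-identical copies of members under other names held 1.20% of UMIs in the total epithelium library, 0.957% in the first and 0.949% in the second placode-enriched library.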

How the results depend on the processing

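No called value of a single member named in the text turned its direction under these alternatives where it was followed. Rps2 in non-cycling placode-like against basal cells was not followed. The members' median in cycling basal cells, where 0 were called, turned from -0.046 to 0.14 in thinned cells. Of the alternatives of single members, 506 kept their call, 226 lost it and 4 gained one. The counts that follow are of members only, without the share of all genes called under each setting. They do not show whether the members' calls changed more than those of other genes. Without the library block, which ignores the pairing of class sums, 0 members were called in place of 31 in placode-like against basal cells, 0 in place of 67 in suprabasal-like against basal cells, 0 in place of 7 and of 1 in cycling placode-like and suprabasal-like cells, 0 in place of 35 in placode-like against basal cycling cells, and 1 in place of 2 in non-cycling suprabasal-like cells. For total epithelium against placode-enriched libraries no paired analysis was possible, because the labels pair none of these libraries. The class comparisons were paired by the library block. In placode-like against basal cells 19 members were called without the low-count filter, 2 with DESeq2, and 7 to 54 with a library left out; 25 with called doublets kept were 13 higher and 12 lower, and resolution 2 gave 22 and 13. In suprabasal-like against basal cells DESeq2 called 17, resolution 2 gave 43, unnamed cells as basal 33, thinned cells 38, doublets kept 23, and leaving out a library 0 to 77. In cycling placode-like cells the values were 14 with DESeq2 size factors, 51 without TMM, 12 with scaling without the members, 2 with DESeq2, 11 with thinned cells, 42 between the top and bottom cells by cell cycle share, 23 for G2M and 3 for S against G1, and 0 to 40 with a library left out. In cycling basal cells, from 0, they were 18 with DESeq2 size factors, 26 without TMM, 1 with scaling without the members, 76 with unnamed cells as basal, 3 between top and bottom cells, 2 for G2M and 4 for S against G1, and 0 to 1. In cycling suprabasal-like cells, from 1, they were 6 with DESeq2 size factors, 4 without TMM, 0 without the filter, with DESeq2 or thinned, 10 between top and bottom cells, 5 for G2M and 2 for S against G1, and 0 to 1. Within non-cycling cells the 3 calls of placode-like cells became 7 with DESeq2 size factors, 18 without TMM, 1 without the filter, 30 with unnamed cells as basal, 2 with DESeq2 or without the block, and 1 to 3. Within cycling cells the 35 became 23 without the filter, 6 with DESeq2, 22 with unnamed cells as basal and 13 to 43. The 2 calls of non-cycling suprabasal-like cells became 8 without TMM and 1 to 4. The interaction called 1 with DESeq2 size factors, without TMM, with DESeq2 and with unnamed cells as basal. The summed share of placode-like minus basal cells was 0.167 points after clustering on the other genes. Leaving out the total epithelium library moved the median of all genes by over 0.1 in cycling basal cells, from 0.024 to 0.18, in non-cycling placode-like against basal cells, from 0.030 to 0.16, and in the interaction, from -0.035 to -0.19. Few non-cycling basal and suprabasal-like cells in the placode-enriched libraries limit the precision of those comparisons.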

Other observations

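The unnamed cluster, which enters the comparisons above only where an alternative counts it as basal, had the highest summed share of the members in every library and the lowest level of cell cycle genes kept out of the phase call, at 935, 957 and 879 CPM in the 3 libraries, beside 1396, 1428 and 1301 CPM in placode-like and 1477, 1983 and 1874 CPM in basal cells. Its share exceeded that of basal cells by 0.631, 2.19 and 2.42 percentage points over all cells. In non-cycling cells alone the difference was -0.097, 0.124 and 0.0091 points, close to 0 in each library. It rests on 22, 72 and 58 cells of the cluster and 148, 6 and 5 basal cells. In cycling cells the difference was 0.262, 1.93 and 2.16 points, with unlike mixes of phases. The cluster held 35, 167 and 156 S cells and 5, 36 and 23 G2M cells. The basal class held 494, 69 and 96 S cells and 405, 214 and 211 G2M cells. Within the cluster, G2M cells were different from G1 cells by -3.55, -2.88 and -3.19 points. Cycling cells made up 64.5%, 73.8% and 75.5% of its cells with a phase call, against 85.9%, 97.9% and 98.4% in the basal class.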
